A study of Mus musculus with 30 samples.

Results

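The response of macrophages to lipopolysaccharide (LPS) over 2 h was compared between cultures that had first received an adrenergic agonist and cultures that had received the vehicle. The quantity studied was the LPS response of each culture, the change of a gene from 0 h to 2 h, and the difference of this response between treatments, the agonist by LPS interaction. Of the 30 RNA sequencing libraries of the series, 14 entered it: the 0 h and 2 h libraries of the vehicle cultures D3, D4, D5 and D6 and of the agonist cultures M2, M3 and M4. All cells were wild-type C57Bl/6 mouse macrophages grown from bone marrow with M-CSF. They were held for 2 h with DMSO or with 1 µM metaproterenol hemisulfate (MPH) and then given LPS, labelled as 100 ng/µL. The 0 h libraries received no LPS. The age of the mice and whether each culture came from its own animal are not stated, so the p-values of the LPS response measure the spread between these cultures. Those of MPH against DMSO at 0 h and 2 h take the libraries of a culture as independent. The correlation within a culture was estimated at 0.72 over all genes. No MPH culture was kept for the same further time without LPS. The effect of LPS on an MPH-treated cell and that of a longer time with MPH therefore cannot be told apart.

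Agonists of this class raise cyclic AMP (cAMP), which activates protein kinase A. The kinase phosphorylates the transcription factor CREB, and CREB drives a fast and often short-lived set of genes, among them those of the NR4A nuclear receptors, the salt-inducible kinases and the cAMP-degrading PDE4 enzymes. LPS is sensed by Toll-like receptor 4 with its co-receptor CD14 and acts through NF-kB and MAP kinases, which switch on cytokine and chemokine genes together with inhibitors of the same pathways. In macrophages cAMP is known for raising the anti-inflammatory cytokine interleukin-10 when it meets such a signal.

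Values are RPKM, reads scaled by transcript length and library depth, and differences are on the scale log2(RPKM + 0.5), which understates changes of genes below about 1 RPKM. No value in the table is 0, so the lowest values are upper limits. With the commonest low value, scaled by transcript length, taken as 1 read, the 14 libraries held about 14.2 to 79.2 M reads, where M is mega. That assumption was not checked. The macrophage genes Lyz2 (2898 to 5598 RPKM) and Csf1r (167 to 280 RPKM) were high in all 14. Of 10 dendritic cell markers 1 passed the filter on low values, Kit (0.191 to 3.96 RPKM). It was not called at 0 h, at 2 h or for the difference between LPS responses. No gene listed as a marker of mast cells, erythroid cells, stroma, B cells or T or NK cells passed. Kit was not on the mast cell list. The summed level of 12 neutrophil markers was 8.13 to 53.7 RPKM in the 4 DMSO and 45.8 to 60.2 RPKM in the 3 MPH cultures at 0 h. None of the 8 neutrophil markers tested was called at 0 h, at 2 h or for the difference between LPS responses, and their part in the results was not tested. The 1 h library labelled M4 stood with the DMSO cultures: over 35 genes that MPH raised at both 0 h and 2 h, its median difference from DMSO at 1 h was -0.08, against 1.99 for M2 and M3. The 1 h libraries enter no test here, and 1 h values are given with and without that library.

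The LPS response differed between MPH and DMSO for 134 of 10128 genes by limma at an adjusted p below 0.05, the threshold for a call throughout. It was larger with MPH for 66 genes (0.652%) and smaller for 68 (0.671%). Larger means a greater rise or a lesser fall. Where a gene is said to rise or fall within a treatment, this is the mean of its cultures, and the test is that of the difference between treatments. The genes with the largest estimates were Il10, which encodes interleukin-10, at 3.36 (SE 0.36), and Nr4a2, a nuclear receptor gene, at -3.12 (SE 0.16). The groups of smaller and larger responses were made up differently. Of the 68 genes with smaller responses, 30 had already been raised by MPH at 0 h and none lowered, and 11 were called lower at 2 h. Of the 66 genes with larger responses, 6 had been lowered at 0 h and none raised, and 20 were called higher at 2 h. The 0 h libraries enter both the 0 h difference and the LPS response, with opposite sign, so these counts of 30 and 6 are a description and not evidence for a link. The 2 h libraries enter both the 2 h difference and the response with the same sign, so the counts of 11 and 20 are likewise a description. Among all 10128 genes, 98 were called higher and 37 lower at 0 h, and 99 higher and 74 lower at 2 h. Not overlapping between the 3 MPH and the 4 DMSO cultures were the responses of 1167 genes (11.5%), against 134 called.

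The count rests on reading each culture against itself. With group means in place of a culture block, 9 of these 134 genes were called and no others. It was 35, 32 and 53 without D4, D5 and D6, 84, 39 and 34 without M2, M3 and M4, and 160 without D3. Of the 30 genes with the 15 largest estimates in each direction, 10 were called in each of the 7 removals of a culture: Il10, Upp1 and Tlr4 among the larger responses and Nr4a2, Pde4b, Sik1, Junb, Cd83, Pim1 and Ier2 among the smaller. Without D4, D5 or D6, 14, 13 and 16 of the 30 were still called, and without M2, M3 or M4 20, 15 and 13. None of the 30 changed its sign in any removal.

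**Figure D1:**
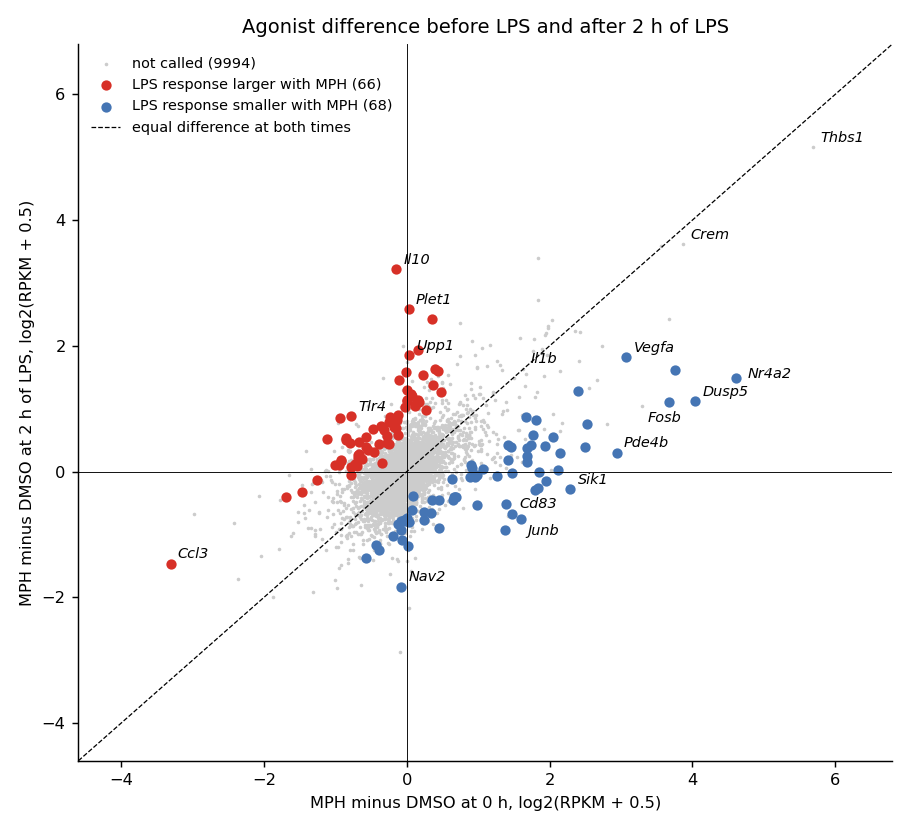
Difference between MPH and DMSO at 0 h (horizontal axis) and at 2 h of LPS (vertical axis), both on the log2(RPKM + 0.5) scale, for 10128 genes. Points are genes; red marks the 66 with a larger and blue the 68 with a smaller LPS response under MPH, and the dashed line marks equal differences. Nr4a2, Dusp5 and Fosb lie far right below the line, Il10 and Plet1 near 0 at 0 h and high at 2 h, and Thbs1 and Crem near the line.

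Nr4a2 and Sik1, targets of cAMP signalling, were high with MPH before LPS and fell after it. Nr4a2 was at 0.337, 0.142, 0.179 and 0.213 RPKM in D3 to D6 at 0 h and at 28.7, 11.8 and 14.4 RPKM in M2 to M4. After 2 h of LPS it was at 0.255, 0.277, 0.192 and 0.165 RPKM with DMSO and at 2.86, 1.05 and 1.11 RPKM with MPH. The groups did not overlap at either time, and the mean response was 0.01 in the 4 DMSO and -3.11 in the 3 MPH cultures (adjusted p = 0.000133 for the difference). Sik1 encodes a salt-inducible kinase that cAMP both induces and inhibits. It was at 1.36, 0.912, 2.22 and 2.1 RPKM with DMSO and 10.8, 7.77 and 10.6 RPKM with MPH at 0 h. At 2 h it was at 0.441, 0.542, 0.625 and 0.614 RPKM with DMSO and 0.576, 0.15 and 0.421 RPKM with MPH. The levels, apart at 0 h, overlapped at 2 h, and the response was -0.98 with DMSO and -3.55 with MPH (difference -2.57, SE 0.22, adjusted p = 0.00146). Fosb, an AP-1 gene, changed by -2.59 with MPH and by -0.03 with DMSO, a difference of -2.56 (adjusted p = 0.00023). The phosphodiesterase genes, which encode enzymes that remove cAMP, took separate courses. Pde4b was at 0.808, 1.93, 0.585 and 0.741 RPKM with DMSO and 12.8, 15.2 and 5.95 RPKM with MPH at 0 h, and rose in all 7 cultures. At 2 h it reached 43.5, 43.9, 36.5 and 35.2 RPKM with DMSO and 53.4, 50.7 and 42.9 RPKM with MPH, where the MPH mean was 11.1 times the DMSO mean at 0 h and 1.23 times at 2 h. The responses were 4.80 and 2.16 (adjusted p = 0.00475). Pde4d did not rise: the response was near 0 in the 4 DMSO cultures and between -1.22 and -0.90 in the MPH cultures (difference -0.99, adjusted p = 0.0245).

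Of the 21 cAMP and CREB target genes tested, 5 had a smaller response with MPH (Nr4a2, Pde4b, Sik1, Fosb and Pde4d) and 0 a larger one. Of these 21, 9 were raised and 1, Atf3, was lowered at 0 h, and 4 were called higher at 2 h. Of all 10128 genes, 68 had a smaller and 66 a larger response. Among them 98 were raised and 37 lowered at 0 h, and 99 were called higher at 2 h. The median difference of the 21 between MPH and DMSO was 1.81 at 0 h and 0.30 at 2 h, where that of all genes tested was -0.04 and -0.02. The median difference between responses was -0.87, beside 0.01 for all genes. Members without a call included Nr4a1 (-2.25, adjusted p = 0.0624) and Crem (-0.26, adjusted p = 0.807). Crem encodes a modulator and repressor of cAMP-driven transcription, and stood at 21.4, 23.9 and 10.2 RPKM with MPH against 0.697 to 1.36 RPKM with DMSO at 2 h.

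Cd83, Pim1 and Zfp36 rose with LPS in the DMSO cultures and less with MPH. Cd83 encodes a surface protein of activated antigen-presenting cells. At 0 h it was at 2.63, 5.1, 3.37 and 7.83 RPKM in D3 to D6 and 11.2, 17 and 11.6 RPKM in M2 to M4. By 2 h the level was 60.6, 98.1, 108 and 113 RPKM with DMSO and 49.3, 66.8 and 59 RPKM with MPH. The MPH cultures were all above the DMSO cultures at 0 h and overlapped the lowest of them at 2 h, with responses of 4.25 and 2.11 (difference -2.14, SE 0.22, adjusted p = 0.00475). Pim1, a survival kinase gene, was at 5.39 to 9.46 RPKM with DMSO and 21.7 to 35.3 RPKM with MPH at 0 h, and at 90.5 to 177 and 73.4 to 164 RPKM at 2 h. Each DMSO culture rose by 3.95 to 4.26 and each MPH culture by 1.74 to 2.20 (difference -2.10, SE 0.13, adjusted p = 0.00023). Zfp36, whose product destabilises cytokine mRNA, rose by 2.47 with DMSO and by a mean of 0.37 with MPH, where 1 culture, M4, did not rise (adjusted p = 0.0385).

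Of 20 genes of the NF-kB family and its feedback, 3 had a smaller response, Cd83, Zfp36 and Bcl3, and 0 a larger one. Bcl3, which encodes a nuclear IkB protein, rose by 2.46 with DMSO and by 1.02 with MPH (adjusted p = 0.0266). The call of Cd83 held in each of the 7 removals of a culture, and those of Zfp36 and Bcl3 in 2 and 1. The median of the 20 was -0.11. All but 1 of the 20 are genes that rose after LPS in the separate DMSO cultures UKD, r1 and r2. The 200 genes with the largest rises in those 3 cultures held 13 with a smaller and 5 with a larger response and had a median difference of -0.26. The 200 largest falls held 5 smaller and 3 larger, with a median of 0.14. All 10128 genes held 68 smaller and 66 larger, with a median of 0.01.

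Of the immediate-early and MAP kinase feedback genes a minority had a called difference. Junb, an AP-1 gene, was at 3, 12.8, 22.1 and 17.3 RPKM with DMSO and 13.6, 34.9 and 87.6 RPKM with MPH at 0 h, groups that overlap. The 2 h levels were 30.8, 103, 265 and 171 RPKM with DMSO and 14.8, 87.1 and 208 RPKM with MPH, which overlap as well. Each culture's own change separated them, from 2.96 to 3.55 with DMSO and from 0.12 to 1.31 with MPH (difference -2.34, SE 0.28, adjusted p = 0.00716). Ier2, a further immediate-early gene, rose by 1.44 to 1.74 in the DMSO cultures and changed by -0.51 to -0.01 in the MPH cultures (adjusted p = 0.0013). Dusp5, a phosphatase gene that restrains ERK, was at 0.436 to 1.18 RPKM with DMSO and 16 to 24.5 RPKM with MPH at 0 h. It then rose by 0.89 to 2.81 with DMSO and changed by -1.62 to -0.53 with MPH. The difference was -2.92 (adjusted p = 0.019, called in 3 of 7 removals). Fosl2, an AP-1 gene, fell by 2.02 with MPH against a change of 0.12 with DMSO (adjusted p = 0.0171, called in 4 of 7). Of 23 AP-1, Egr and MAPK feedback genes, these 4 and Fosb had a smaller response and 0 a larger one, with a median of -0.40. All 10128 genes held 68 smaller and 66 larger, with a median of 0.01. Jun was at 1.74 (adjusted p = 0.51) and Egr1 at 0.39 (adjusted p = 0.93) in this comparison.

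Further genes among the 15 largest smaller responses encode regulators of transcription and a chemokine. Cebpb, a C/EBP factor gene of inflammatory macrophages, rose by 2.01 with DMSO and changed by -0.09 with MPH (adjusted p = 0.0216). Klf4, a Krüppel-like factor gene, changed by -0.81 with DMSO and by -2.91 with MPH (adjusted p = 0.019). Trib1, a pseudokinase gene, rose by 1.93 with DMSO and changed by -0.16 with MPH (adjusted p = 0.0329). Cx3cl1, which encodes the chemokine fractalkine, went from 0.239 to 0.835 RPKM up to 3.01 to 8.98 RPKM with DMSO, and from 1.48 to 2.92 RPKM to 1.37 to 3.53 RPKM with MPH (adjusted p = 0.0329). The calls of Cebpb and Cx3cl1 each held in 1 of the 7 removals, and those of Trib1 and Klf4 in 2 and 3.

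**Figure D2:**
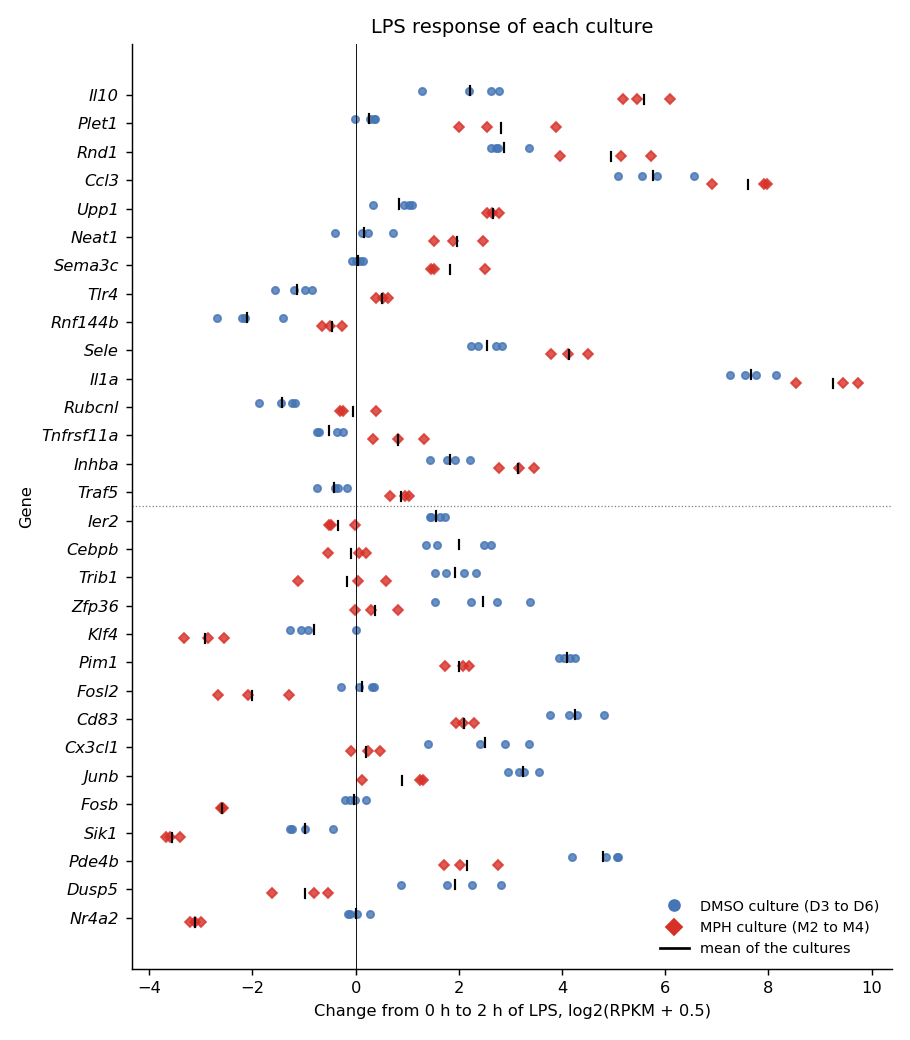
Change from 0 h to 2 h of LPS in each culture, on the log2(RPKM + 0.5) scale, for the 15 genes with the largest estimate in each direction. Blue circles are the DMSO cultures D3 to D6, red diamonds the MPH cultures M2 to M4 and black ticks the means; Il10 changed by 1.28 to 2.77 with DMSO and 5.18 to 6.10 with MPH, and Nr4a2 by -0.15 to 0.28 and -3.21 to -2.99.

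Promoters of the genes with smaller responses were looked at for the motif that CREB reads. The table of RefSeq starts (GRCm38.p6, 250 bases before to 50 after each start) held 56 of the 68 genes. The cAMP half-site TGACG, on either strand, was in at least 1 promoter of 28 of the 56 genes (50.0%) and of 3084 of 8208 genes tested (37.6%). The full element TGACGTCA, which contains the half-site, was in 5.4% and 3.7%. The share with the half-site varied between classes, some of which share genes with the 68. It was 45.5% of the genes raised and 46.9% of those lowered at 0 h, and 50.0% of those lower only after LPS. Of the genes with larger responses 28.8% held it. The share was 20.0% of the genes higher only after LPS and 37.9% of those called higher at both times. These differences between classes were not tested. The full element was in 6.2% of the genes lowered at 0 h. The NF-kB consensus was in 14.3% of the 56 and 6.1% of all. The 250 bases before the start are given for the 3 genes with the largest smaller responses and a half-site there, with the half-sites on either strand in capitals: Nr4a2 with 4 of them (minus strand, chr2:57124004-57124253), Dusp5 with 1 (plus strand, chr19:53528895-53529144) and Pde4b with 1 in this start of several (plus strand, chr4:102421305-102421554). These matches describe letters and not binding.
Nr4a2: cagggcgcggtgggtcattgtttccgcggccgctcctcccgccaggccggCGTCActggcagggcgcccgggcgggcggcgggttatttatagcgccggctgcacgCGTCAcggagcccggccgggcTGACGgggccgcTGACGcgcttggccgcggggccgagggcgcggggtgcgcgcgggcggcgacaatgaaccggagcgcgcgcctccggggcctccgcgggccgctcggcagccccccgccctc
Dusp5: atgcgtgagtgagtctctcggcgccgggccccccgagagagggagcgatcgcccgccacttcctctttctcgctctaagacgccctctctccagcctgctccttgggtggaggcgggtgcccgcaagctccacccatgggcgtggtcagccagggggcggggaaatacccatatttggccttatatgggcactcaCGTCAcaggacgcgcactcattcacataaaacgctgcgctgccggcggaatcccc
Pde4b: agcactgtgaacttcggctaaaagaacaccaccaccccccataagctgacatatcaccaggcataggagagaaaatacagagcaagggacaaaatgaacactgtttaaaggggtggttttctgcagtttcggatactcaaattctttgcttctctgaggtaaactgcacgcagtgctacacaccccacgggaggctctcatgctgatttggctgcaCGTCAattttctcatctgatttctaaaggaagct

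At 0 h, before any LPS, 98 genes were called higher with MPH (0.968%) and 37 lower (0.365%), with a median difference of 1.63 and -1.15 that the choice of genes fixes. At 2 h, 87 of the 98 were above DMSO, 58 without overlap, and 35 were called higher, where 99 of all genes (0.977%) were called higher and 74 (0.731%) lower. These 2 h values are from the same cultures and enter the spread by which the 98 were called, so they are a description and no independent check. Their median difference was 0.81 at 1 h, or 1.28 without the library labelled M4, and 0.77 at 2 h. Of the 37 lowered genes, 5 were called lower at 2 h, with a median of -0.57 at 1 h (-0.80 without that library) and -0.40 at 2 h. Among the 30 raised genes whose LPS response was smaller, 22 fell with MPH, the groups overlapped at 2 h in 22, and 4 were still called higher: Nr4a2, Fosl2, Vegfa and Cd14. The choice of genes with a smaller response favours such counts. The count called at 0 h was 68 in place of 135 when the correlation between libraries of a culture was estimated, and at 2 h 85 in place of 173.

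The 35 genes called higher with MPH at both times included genes of a secreted protein and of polyamine synthesis. Of the 35, 31 neither rose nor fell after LPS in UKD, r1 and r2, DMSO cultures outside this comparison. A rise or fall there is a mean change of 2-fold or more with the same direction in each of these cultures. Of all 10128 genes, 9146 neither rose nor fell, a like share. Thbs1, which encodes the matrix protein thrombospondin-1, was at 292, 380 and 189 RPKM with MPH at 0 h and 402, 379 and 167 RPKM at 2 h. In D3 to D6 it was at 10.1, 5.51, 2.42 and 3.93 RPKM at 0 h and 12.4, 5.12, 4.42 and 12.4 RPKM at 2 h. The 2 h difference was 5.16 (adjusted p = 0.000302) and the responses were not called different (-0.53, adjusted p = 0.661). Cytip, which encodes a cytohesin-interacting protein, differed by 3.59 at 2 h (adjusted p = 0.0136). Hilpda, a lipid droplet gene, differed by 2.43 at 2 h (adjusted p = 0.0481), with a mean 12.5 times that of DMSO at 0 h and 4.75 times at 2 h. Its responses were not called different (-1.24, adjusted p = 0.224) but were without D4 (-1.62, adjusted p = 0.0257). Odc1, the ornithine decarboxylase gene of polyamine synthesis, differed by 2.41 (adjusted p = 0.0024). Vegfa, an angiogenic growth factor gene, stood between. It was at 38.2, 24.9 and 40.2 RPKM with MPH at 0 h and 12.9, 6.54 and 9.48 RPKM at 2 h, above 1.19 to 4.31 RPKM with DMSO at 2 h. Its response was smaller with MPH (-1.25, SE 0.18, adjusted p = 0.0171) while its 2 h level was still called higher (1.82, adjusted p = 0.0489).

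**Figure D3:**
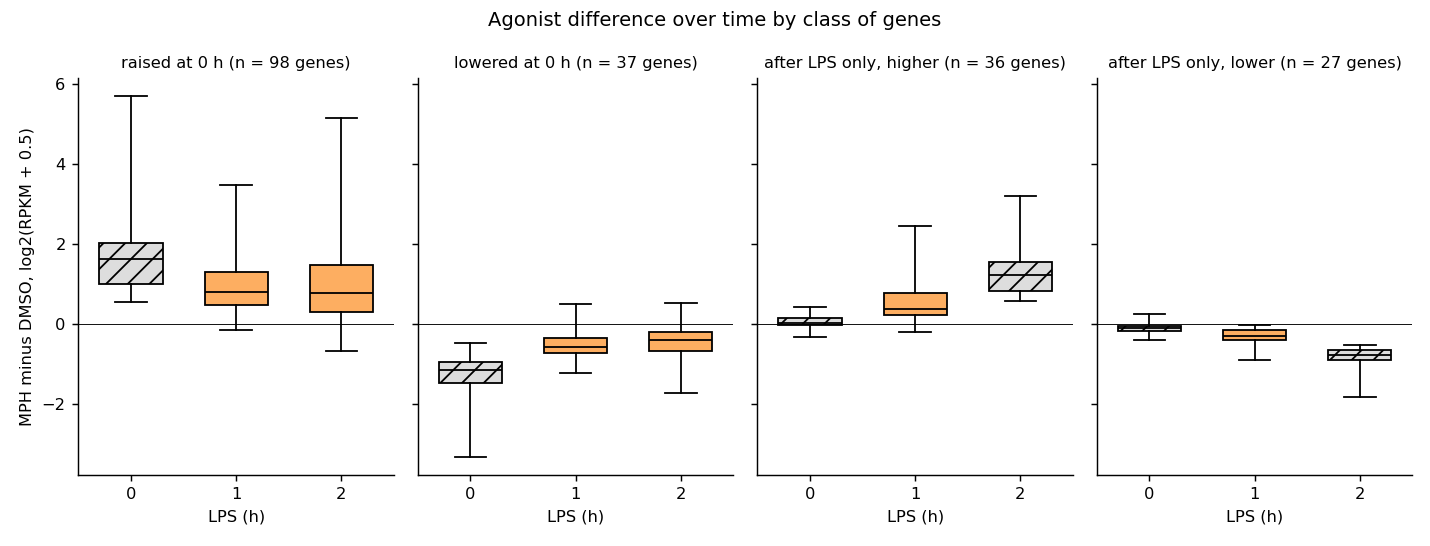
Difference between MPH and DMSO at 0, 1 and 2 h of LPS on the log2(RPKM + 0.5) scale for 98 genes raised and 37 lowered at 0 h and for 36 genes higher and 27 lower only after LPS. Boxes span the quartiles with the median, whiskers the full range; hatched grey boxes hold values that chose the genes, and the medians of the raised genes were 0.81 at 1 h and 0.77 at 2 h.

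Among the genes lowered by MPH at 0 h, 6 rose more or fell less with MPH afterwards. Ccl3, which encodes the chemokine MIP-1α, was at 6.14, 18.7, 27.4 and 43.8 RPKM with DMSO and 0.388, 2.44 and 2.61 RPKM with MPH at 0 h. By 2 h it reached 624, 1098, 1316 and 1498 RPKM with DMSO and 214, 353 and 784 RPKM with MPH. The groups, apart at 0 h, overlapped at 2 h, and the rise was 5.76 with DMSO and 7.60 with MPH (difference 1.84, adjusted p = 0.0486, called in 1 of 7 removals). Ptger4, which encodes the prostaglandin E2 receptor EP4, itself coupled to cAMP, was at 0.386 to 0.427 RPKM with MPH and 1.68 to 3.34 RPKM with DMSO at 0 h. Its rise was 1.96 with MPH and 0.67 with DMSO (adjusted p = 0.016). Plau, the urokinase gene, was at 70 to 102 RPKM with DMSO and 8.83 to 11.6 RPKM with MPH at 0 h, and its responses spread too widely for a call (2.31, SE 0.73, adjusted p = 0.226).

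Il10 led the genes that differed after LPS alone. It was at 0.0529, 0.631, 0.0594 and 0.0823 RPKM in D3 to D6 and 0.0213, 0.334 and 0.0129 RPKM in M2 to M4 at 0 h. At 2 h it was at 2.89, 2.25, 2.07 and 3.48 RPKM with DMSO and 22.4, 29.7 and 34.7 RPKM with MPH, a mean 10.8 times as high, with no overlap. The rise was 2.22 with DMSO and 5.58 with MPH (adjusted p = 0.00475). In the 1 h libraries it was at 29.1 and 50.4 RPKM in M2 and M3 and at 0.295 RPKM in that labelled M4, beside 0.401 to 3.56 RPKM with DMSO. In all, 36 genes were higher and 27 lower with MPH only after LPS, that is, called at 2 h with overlapping 0 h groups and a 0 h difference that was of opposite sign or less than 1/3 of that at 2 h. Of these 63, 16 and 10 were also called for the difference between responses. This fit takes the libraries of a culture as independent at 0 h and 2 h. With the culture as a random block the counts were 15 and 12, and from the 2 h libraries alone 4 and 1. The median difference of the 36 at 1 h was 0.37, or 0.65 without the library labelled M4, beside 0.00 for all genes.

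Several of these genes belong to the interleukin-1 family and to secreted or surface proteins of inflamed tissue. Il1a, which encodes interleukin-1α, reached 173, 105, 124 and 146 RPKM with DMSO and 419, 257 and 476 RPKM with MPH at 2 h from 0.0595 to 0.463 RPKM at 0 h. The rise was 7.67 with DMSO and 9.24 with MPH (adjusted p = 0.0411, called in 2 of 7 removals). Il1rn, which encodes the interleukin-1 receptor antagonist, was at 17.4 to 24.8 RPKM with DMSO and 45 to 117 RPKM with MPH at 2 h, a called difference of 1.95 (adjusted p = 0.0259), whereas the responses were not called different (1.52, adjusted p = 0.152). Inhba, the activin A gene, rose by 1.84 and 3.14 (adjusted p = 0.0339, called in 1 of 7 removals). Sele, the E-selectin gene, rose by 2.54 and 4.14 (adjusted p = 0.0171). Serpinb2, a protease inhibitor gene, was at 0.551 to 1.59 RPKM with DMSO and 1.98 to 10.8 RPKM with MPH at 2 h (2.00, adjusted p = 0.0251), and its responses were not called different (adjusted p = 0.0639).

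Low at 0 h in both treatments were Upp1 and Plet1. Upp1, which encodes uridine phosphorylase, was at 0.495, 0.867, 0.478 and 0.47 RPKM with DMSO and 0.355, 1.14 and 0.428 RPKM with MPH at 0 h. It was at 0.75, 2.42, 1.37 and 1.5 RPKM with DMSO and 5.38, 9.14 and 5.34 RPKM with MPH at 2 h (difference of responses 1.81, SE 0.21, adjusted p = 0.00609). Plet1, which encodes a surface protein, was at or below 0.0338 RPKM in all 7 cultures at 0 h, a level of a few reads. With MPH it then reached 2.52, 1.65 and 7.26 RPKM and with DMSO 0.0168 to 0.18 RPKM (2.56, adjusted p = 0.0216), and it was called in 1 of the 4 removals in which it passed the filter. Rnd1 rose by 2.87 with DMSO and 4.94 with MPH (adjusted p = 0.0361, called in 1 of 7 removals). Sipa1l1, which encodes a Rap GTPase-activating protein, changed by -0.16 and 1.07 (adjusted p = 0.0498, called in 2 of 7). U90926 differed by 2.56 at 2 h (adjusted p = 0.0194) without a call for the response (adjusted p = 0.0726).

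Promoters of the genes higher only after LPS were looked at for the AP-1 motif. TGANTCA, which reads the same on both strands, was in at least 1 promoter of 8 of the 30 genes matched in the RefSeq table (26.7%) and of 499 of 8208 genes tested (6.1%). The half-site TGACG was in 20.0% of the 30 and the NF-kB consensus in 0. No test was made, and 8 partly overlapping classes of genes were searched in the same way. For genes lower only after LPS the share with TGANTCA was 4.2%, and for the genes raised at 0 h it was 6.5%. The 250 bases before the start follow for the 3 named genes with the largest 2 h differences that hold the motif, which stands in capitals: Plet1 (plus strand, chr9:50494275-50494524), Serpinb2 (plus strand, chr1:107511173-107511422) and Il1rn (plus strand, chr2:24336610-24336859).
Plet1: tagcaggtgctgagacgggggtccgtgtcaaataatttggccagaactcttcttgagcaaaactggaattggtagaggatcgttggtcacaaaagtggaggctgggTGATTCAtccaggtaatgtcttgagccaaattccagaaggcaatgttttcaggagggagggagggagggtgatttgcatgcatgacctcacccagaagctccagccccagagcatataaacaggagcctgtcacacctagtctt
Serpinb2: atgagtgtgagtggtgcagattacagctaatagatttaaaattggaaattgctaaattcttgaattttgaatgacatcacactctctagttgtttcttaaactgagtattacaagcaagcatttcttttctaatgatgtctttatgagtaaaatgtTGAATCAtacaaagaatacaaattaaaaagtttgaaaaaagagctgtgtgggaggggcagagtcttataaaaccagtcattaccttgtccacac
Il1rn: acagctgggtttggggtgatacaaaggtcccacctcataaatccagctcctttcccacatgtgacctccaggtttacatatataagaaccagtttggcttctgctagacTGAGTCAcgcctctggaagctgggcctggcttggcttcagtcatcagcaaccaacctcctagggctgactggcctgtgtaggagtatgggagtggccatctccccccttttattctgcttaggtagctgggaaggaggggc

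Tlr4, the receptor gene for LPS, moved in opposite directions. It was at 6.55, 9.18, 4.45 and 8.35 RPKM in D3 to D6 at 0 h and 3.45, 3.71, 2.01 and 2.5 RPKM at 2 h. In M2 to M4 it was at 2.89, 6.25 and 3.02 RPKM at 0 h and 4.36, 8.36 and 4.94 RPKM at 2 h. The groups overlapped at 0 h and not at 2 h, though the 2 h difference of 0.88 was not called (adjusted p = 0.267). The response was -1.14 with DMSO and 0.51 with MPH (difference 1.66, SE 0.18, adjusted p = 0.00475). Cd14, which encodes the co-receptor, was at 29.8 to 40.9 RPKM with DMSO and 165 to 207 RPKM with MPH at 0 h, and at 306 to 506.5 RPKM and 828 to 1164 RPKM at 2 h. Its rise was smaller with MPH (2.37 against 3.48, adjusted p = 0.0266, called in 1 of 7 removals) while its level was higher at both times. Of 22 Toll-like receptor pathway genes tested these were the 2 called (134 of 10128 over all genes), and the median difference was 0.05.

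Other genes with larger responses mostly fell less, or rose only, with MPH. Tnfrsf11a, the gene of the receptor RANK, changed by -0.75 to -0.24 in the DMSO cultures and by 0.34 to 1.32 in the MPH cultures (adjusted p = 0.0329). Traf5, which encodes an adaptor of that receptor family, changed by -0.74 to -0.17 and by 0.67 to 1.04 (adjusted p = 0.016). Rnf144b, a ubiquitin ligase gene, changed by -2.10 with DMSO and by -0.47 with MPH (adjusted p = 0.0285). Rubcnl, an autophagy gene, changed by -1.44 and -0.05 (adjusted p = 0.0326). Neat1, a nuclear long non-coding RNA, changed by 0.17 and 1.96 (adjusted p = 0.0217), and Sema3c, a semaphorin gene, by 0.04 and 1.82 (adjusted p = 0.0183). For these 6 genes the calls held in 1 to 5 of the 7 removals.

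**Figure D4:**
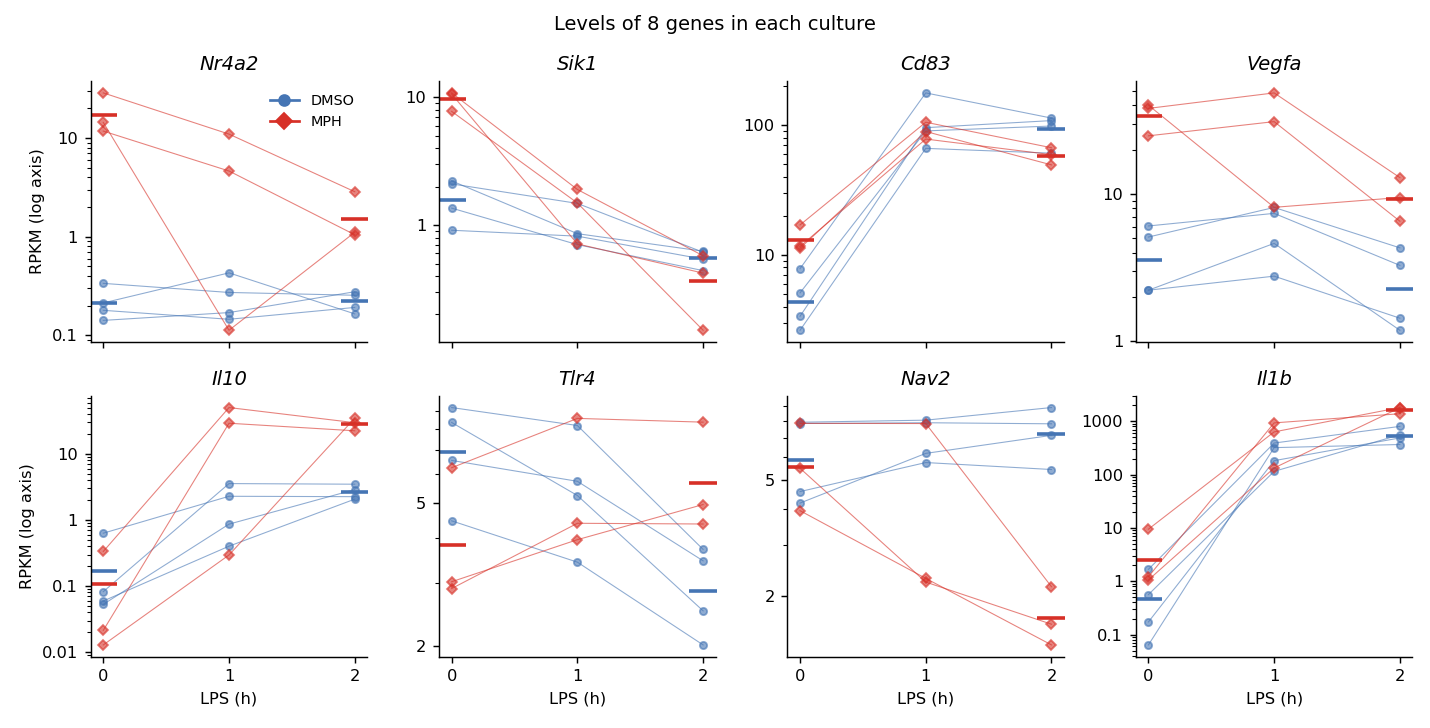
RPKM on a log axis at 0, 1 and 2 h of LPS for 8 genes, with a line for each culture; blue circles are DMSO and red diamonds MPH cultures, and horizontal bars the means at 0 and 2 h taken on the log2(RPKM + 0.5) scale. Nr4a2 and Sik1 start high and fall with MPH, Il10 and Nav2 part only after LPS, and the 1 h library labelled M4 lies with the DMSO cultures for Nr4a2, Vegfa, Il10 and Nav2.

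Nav2 led the named genes lower only after LPS. Nav2, which encodes a cytoskeleton-associated protein of neurite growth, was at 4.58, 4.18, 7.94 and 7.86 RPKM with DMSO and 5.51, 3.93 and 7.87 RPKM with MPH at 0 h. The 2 h levels were 5.45, 7.15, 8.92 and 7.84 RPKM with DMSO and 1.6, 1.36 and 2.15 RPKM with MPH, without overlap (difference of responses -1.75, SE 0.19, adjusted p = 0.00475, called in 7 of 7 removals). Stk38l, a kinase gene of the Hippo family, rose by 0.47 to 1.02 with DMSO and changed by -0.73 to -0.01 with MPH (adjusted p = 0.033). Pdgfa, a growth factor gene, changed by -0.23 and -1.25 (adjusted p = 0.019), and Tns3, a focal adhesion gene, by -0.28 and -1.14 (adjusted p = 0.0276). Lpcat1, which encodes a phospholipid-remodelling enzyme, changed by -0.15 and -1.01 (adjusted p = 0.0313). Nop2, which encodes a nucleolar RNA methyltransferase of ribosome assembly, changed by 0.09 and -0.63 (adjusted p = 0.0216). Cdk6 and Dock8 were called lower at 2 h (-1.15 and -1.02, adjusted p = 0.0331 and 0.0289) without a call for the responses (adjusted p = 0.171 and 0.0559). The median difference of the 27 genes at 1 h was -0.29, or -0.41 without the library labelled M4. Without D5, 3 of such genes lower and 9 higher were found in place of 27 and 36.

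The LPS responses of Il1b, the interleukin-1β gene the series is about, were not told apart by treatment. It was at 0.064, 0.563, 0.173 and 1.67 RPKM with DMSO and 1.22, 9.48 and 1.06 RPKM with MPH at 0 h. At 2 h it was at 367, 558, 488 and 803 RPKM with DMSO and 1386, 1810 and 1794 RPKM with MPH. The rises were 9.35, 9.04, 9.50 and 8.53 in D3 to D6 and 9.65, 7.50 and 10.17 in M2 to M4, with M3, the culture highest at 0 h, lowest. The difference of mean rises was 0.0047 (exact two-sided permutation p = 1, smallest possible 0.0286 in 35 arrangements). It was -0.72 with a pseudocount of 0.1 and 0.37 with 1, and from -0.53 to 0.81 when a culture was left out. Its sign changed with these settings, and the 0 h levels of Il1b lie near the pseudocounts. The 2 h levels themselves did not overlap, and every MPH culture was above every DMSO culture. By the fit over all genes the difference at 2 h was 1.63 (adjusted p = 0.291) and was not called. That fit takes a common spread for the 0 h and 2 h libraries, and the 0 h levels of Il1b ran from 0.064 to 9.48 RPKM. The missing call therefore does not show that the 2 h levels were alike.

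By list, 2 of 19 cytokine and mediator genes and 0 of 31 interferon-stimulated genes had a called difference between responses. Beside them, all 10128 genes held 66 with a larger and 68 with a smaller response, and 99 called higher at 2 h. Of 19 inflammatory cytokine and mediator genes, Il10 and Il1a had a larger response and 0 a smaller one, and 16 of the 19 rose after LPS in UKD, r1 and r2. Osm, the oncostatin M gene, was raised at 0 h (2.80) and had an estimate of -2.05 that did not pass (adjusted p = 0.072). Of 14 chemokine genes Ccl3 alone was called; Ccl4 was at 1.60 (adjusted p = 0.368), Cxcl1 at -0.81 (adjusted p = 0.435) and Ccl12 at -1.40 (adjusted p = 0.352). None of 31 interferon-stimulated genes was called, with a median difference of 0.07 and Irf1, an interferon-induced transcription factor gene, at -1.50 (adjusted p = 0.231). None of 19 cholesterol synthesis genes was called, and their estimates ran from -0.19 for Srebf2 to 0.34 for Msmo1 among the 4 with the smallest p. Of 12 regulatory macrophage genes, Il10 was larger and Vegfa smaller, and 6 were called higher at 2 h: Il10, Thbs1, Vegfa, Odc1, Il1rn and Il4ra, the interleukin-4 receptor gene.

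Each of the metabolic and signalling lists held 0 to 2 calls for the response, beside 134 of all 10128 genes. Hk2, which encodes a hexokinase, rose by 0.54 with DMSO and 1.39 with MPH (adjusted p = 0.0183) and was, with Vegfa, called of 20 glycolysis and hypoxia genes. Of 20 cell cycle genes Mki67 was called (0.85, adjusted p = 0.0266, called in 1 of 7 removals). Of 22 GTPase exchange and activating factor genes, Tbc1d1, which encodes a Rab GTPase-activating protein, had a smaller response: it rose by 0.42 to 0.83 with DMSO and changed by -0.25 to -0.04 with MPH (-0.80, adjusted p = 0.0276). At 2 h 6 of these 22 were called lower with MPH and 0 higher, where 74 of all genes (0.731%) were called lower. Of the 22, 2 had been called lower at 0 h. This list, as the others, was chosen with earlier results of these data known. The counts are therefore a description and get no test. Among the 6 were Dock8, Fgd3 (-1.49), Swap70 (-1.24) and Tbc1d1 (-1.37). None of 20 genes of the adrenergic and cAMP machinery was called. Cd14 was the 1 of 16 macrophage markers called.

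**Figure D5:**
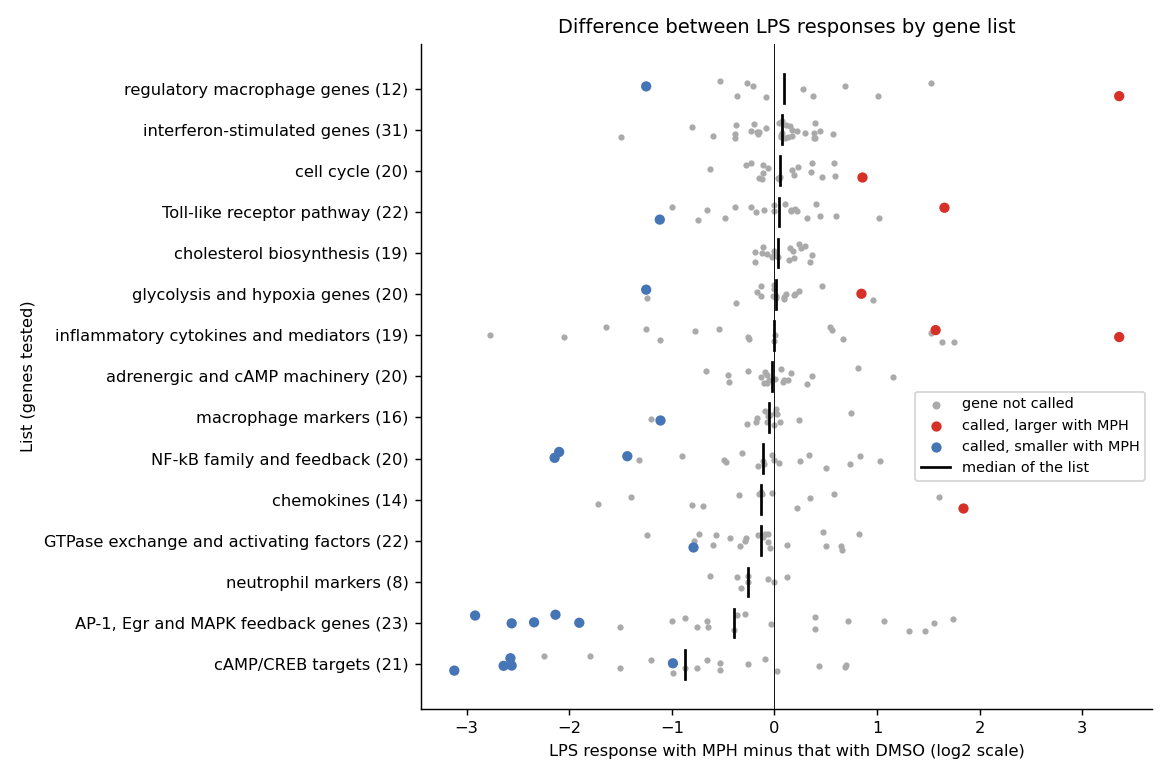
LPS response with MPH minus that with DMSO on the log2 scale for the genes of 15 lists, with the number tested in brackets. Points are genes, red for called larger and blue for called smaller, and black ticks are medians; the cAMP and CREB targets had the lowest median, -0.87, with 5 genes called smaller.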

How the data were processed

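RNA from macrophage cultures was sequenced after TruSeq library preparation, per the labels' protocols. The authors deposited 1 table of RPKM values for 44401 RefSeq transcripts. The submitters' processing notes name FastQC, cutadapt, HISAT2, SAMtools and the build mm9 without versions. The counting program is not given in the sources used here. For each of 24761 gene names the transcript with the highest mean RPKM was kept, and the 10128 genes that reached 1 RPKM in 3 or more of the 14 libraries were tested.

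The LPS response, as log2(RPKM + 0.5), was fitted by limma-trend with culture as a block (limma version 3.58.1 under R 4.3.3). This equals a comparison of 3 with 4 per-culture changes. MPH was compared with DMSO at 0 h and 2 h in a fit of the 4 group means. Benjamini-Hochberg adjustment ran over all genes, with a threshold of 0.05. The fit of the response was checked on simulated data, and the fit of MPH against DMSO at 0 h and 2 h was not. Il1b was tested by an exact permutation of the 7 changes. UKD, r1 and r2 served to say which genes respond to LPS without MPH.

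The block rests on the culture names in the labels. Deviations of a culture's 0 h and 2 h libraries from their group means correlated at 0.592 to 0.854. For each of the 7 cultures this was above the correlation of its 0 h library with the other 2 h libraries of its treatment. Libraries of the other treatment were not compared in this check.

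Named genes are the 15 largest estimates in each direction of the response, the 10 largest rises and 6 largest falls at 0 h without overlap, the 8 largest in each direction after LPS only, up to 4 genes of each list with the smallest p, and Il1b. Others were named after their values were seen, among them Pde4d, Jun, Egr1, Odc1 and the members named in counts. The members, lists and rules were chosen with earlier results of these data known. Alternatives were other pseudocounts, filters, scaling, transcript sums, culture blocks and removals. Reads were estimated from steps between low values, with transcript lengths of GENCODE M21. Some values that the naming rule covers are not reported here.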

Additional observations from a re-analysis of the deposited data

Results flagged for a closer look

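In Hilpda, a lipid droplet gene, the change from 0 h to 2 h in D4 was -0.79, far from those of D3, D5 and D6 (0.68 to 0.81). This gap was 0.92 of the range of the 4 DMSO cultures. Of the 54 genes given this check with 4 cultures, chance alone would mark about 1 in 20.

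In 7 named genes every DMSO culture changed in one direction after LPS and every MPH culture in the other, and limma called the difference between responses for all 7. The differences were 1.66 for Tlr4, 1.34 for Tnfrsf11a and 1.30 for Traf5, which fell with DMSO and rose with MPH. They were -2.92 for Dusp5, -1.90 for Ier2, -1.20 for Stk38l and -0.80 for Tbc1d1, which rose with DMSO and fell with MPH. Of these calls, those of Tlr4 and Ier2 held in each of the 7 removals of a culture. Of the 134 genes called, 29 had every DMSO culture on one side of 0 and every MPH culture on the other. In all 134 the responses did not overlap between treatments, so the call favours such a split and the 29 are a description. The count among genes not called is not given here.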

How the results depend on the processing

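Of the alternatives for named genes, 1324 kept the side of the threshold and the direction, 293 lost and 33 gained a call, and 0 changed the sign of a called value. The 134 differing responses became 53 with no filter on low values (44 shared with the 134), 86 with at least 5 RPKM, 32 to 160 when a culture was left out and 434 against all 7 DMSO cultures (127 shared). Pairing matters most: with no replicate block the count was 9 from 14 and 11 from 21 libraries, and with the number that D3 shares with M3 and D4 with M4 as a replicate block across treatments it was 58 (29 shared). These numbers do not pair the cultures: the changes of D3 and M3 correlated at -0.43 and those of D4 and M4 at -0.36, while D3 with M2, D4 with M3 and D5 with M4 were at 0.67, 0.60 and 0.52, a relation across treatments that no label gives and that was not modelled.

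At 0 h the 135 calls became 53 to 165 when a culture was left out, 230 against 7 DMSO cultures, 68 with the culture as a random replicate block and 0 with the shared number as a block (limma, 341 genes at an unadjusted p under 0.05). At 2 h the 173 calls became 37 to 199, 374, 85 and 0 (261 genes unadjusted), and 23 from the 2 h libraries alone. Genes higher only after LPS numbered 36, and 57 with no filter, 18 with at least 5 RPKM, 9 to 37 without a culture, 77 against 7 DMSO cultures, 15 with the random block, 0 with the number block and 4 from 1 time alone. Those lower only after LPS numbered 27, and 17 with no filter, 3 to 29 without a culture, 49, 12, 0 and 1 in the same order. The cause of these moves was not tested.

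By the estimate of reads, a single read in a 2 kb transcript stood for 0.0312 RPKM in the shallowest 0 h library. The 0 h values of Plet1 and Sele, at most 0.0338 and 0.0369 RPKM, lie near it. Leaving out the 1 h library labelled M4 was chosen after seeing the data.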

Other observations

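Some genes of ribosome assembly, which no list had held, had differing responses. Nop2, Grwd1, Gar1, Ppan and Nol10, which encode nucleolar and pre-ribosomal proteins, had a smaller LPS response with MPH by limma. A list of 69 such genes was then drawn up by gene symbol, after these values had been seen, so it gets no test. It held 5 genes with a smaller and 0 with a larger response, and 11 called lower and 0 called higher at 2 h, beside 68, 66, 74 and 99 of all 10128 genes. Of the 5 calls for the response, 0 held in all 7 removals of a culture. The median difference between MPH and DMSO was -0.08 at 0 h, -0.07 at 1 h and -0.30 at 2 h, and that of the responses was -0.26, beside 0.01 for all genes. Responses did not overlap between treatments in 30 of the 69 (1167 of 10128 over all genes). Ppan, a pre-ribosomal factor, went from 5.17, 6.14, 10.6 and 11.1 RPKM to 8.47, 9.5, 17.2 and 13.5 RPKM in D3 to D6. In M2 to M4 it went from 5.27, 5.37 and 11 RPKM to 4.42, 4.1 and 9.16 RPKM. All 4 DMSO cultures thus rose and all 3 MPH cultures fell, with levels that overlapped at both times. Gas5, a host gene of small nucleolar RNAs, fell by 0.35 to 0.59 in the DMSO and by 0.87 to 1.05 in the MPH cultures.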
